A study of Mus musculus with 6 samples.

Results

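Immature astroglia of the mouse suprachiasmatic nucleus (SCN), the hypothalamic center of the circadian clock, were examined through the 100 features that set them apart most from early neurons, oligodendrocyte progenitors and mature astrocytes. Astroglia and the ependymal cells that line the ventricles derive from radial glia, the progenitors along the ventricular wall that first give rise to neurons. During maturation, astrocytes lose progenitor genes and gain those of transmitter uptake and metabolism, whereas ependymal cells acquire motile cilia and stay at the ventricle.

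The SCN was micro-dissected from C57BL6/J wild-type mice at gestational day (GD) 17.5 and at postnatal days (PND) 2, 10 and 30, with no treatment in any group. Each stage was a pool of 10 fetuses or pups, 1 male and 1 female per mother from at least 5 mothers, and single nuclei were sequenced in 6 libraries, with 2 each for PND10 and PND30 and a single one for GD17.5 and for PND2. Library preparation and sequencing were repeated for PND10 and PND30, and the study calls the libraries of these stages independent replicates. Its methods give 6 batches of nuclei isolation and 1 pool of 10 animals per stage, and do not say whether the repeat drew on the same pool. The p-values below then measure only the spread between these libraries. The 6 libraries held 771 to 5555 annotated nuclei with median depths of 3144 to 12106 UMIs (unique molecular identifiers, each the tag of 1 captured transcript).

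The features were chosen by their measured level in summed nuclei. Of 32285 rows of the count matrix, 4221 had at least 50 CPM (counts scaled to the same total in each sum) in cluster 08 of GD17.5 and PND2, which the authors annotated as immature astrocytes/ependymal cells. For these, the ratio of CPM + 5 in cluster 08 was taken over the highest of early SCN neurons (cluster 01), Vip+ neurons (03) and NG2/oligodendrocyte progenitor cells (OPCs, 10) of the same stages and mature astrocytes (09) of PND10 and PND30. The 100 rows with the largest ratio are the members, and each is named by its rank in this order. The count matrix was used without gene names, so no member has a name or a known function here, no sequence is shown, and the annotated cell types could not be checked against markers. The nuclei of cluster 08 that decided the choice were 489 from GD17.5 and 664 from PND2. The 111 nuclei of cluster 08 at PND10 were not used by it, although they had been put in the cluster by their expression over all genes. Of these, 104 came from the first PND10 library (967206 UMIs) and 7 from the second (23487 UMIs). At PND30 the cluster had no nucleus. Immature astroglia below stands for all nuclei of cluster 08. Immature astrocytes and ependymal cells were not told apart within it, and their mix at each stage was not tested.

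The ratio that chose the members ran from 6.33 at rank 1 through 4.19 at rank 10 and 2.29 at rank 50 to 1.86 at rank 100. The closest other cluster was mature astrocytes for 50 members, OPCs for 38, early neurons for 7 and Vip+ neurons for 5. The limit of the set did not fall in a gap. Ranks 99 and 100 had ratios of 1.864 and 1.858 with 53.7 and 54.2 CPM in early cluster 08, and the next 2 rows had ratios of 1.857 and 1.857 with 257 and 231 CPM. Members spanned nearly 2 orders of magnitude in level, from 50.6 to 4277 CPM with a median of 113. Ranks 85, 76 and 67 were the most abundant, at 4277, 4047 and 2369 CPM in early cluster 08.

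The members did not behave as 1 set. By their correlation across the 1153 nuclei of cluster 08 at GD17.5 and PND2, average linkage separated a first group of 61 members, the second of 21 and the third of 18. The first group held 8 of the 10 top-ranked members, and the second held the other 2. Within the first group the median correlation of a pair was 0.18, within the second 0.15 and within the third 0.11, whereas pairs of 1 member from the first and 1 from the second had a median of -0.02. These values pool 2 stages. Across the 489 GD17.5 nuclei alone the medians in the same order were 0.093, 0.158, 0.081 and -0.039. Across the 664 PND2 nuclei alone they were 0.222, 0.0013, 0.057 and 0.022. Members of the second group thus varied together at GD17.5 and not at PND2. In the 111 PND10 nuclei, which the grouping did not use, 74.4% of the 1830 pairs within the first group had a correlation above 0 (median 0.098). Pairs within the second group had a median of -0.01 there, and 46.2% of the 210 were above 0. These correlations are a description, since the nuclei of a stage share a library and differ in depth, and single values in sparse counts are weak. Average linkage into 2 groups joined the second and the third groups and left the first as it was, and Ward linkage into 2 groups put 68 members beside 32. The border between the second and the third groups was less firm, because Ward linkage into 3 groups split the first group instead and kept 20 of the second with 12 of the third.

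In immature astroglia of PND10, the first group stood above its early level and the second and the third groups below it. The median of the log2 ratio of CPM + 5 over GD17.5 and PND2 was 0.92 in the first group, -1.36 in the second and -1.26 in the third, equal to 1.89, 0.391 and 0.416 times the early level. The median over all 4221 eligible rows was -0.07, and the middle 50% of them lay between -0.42 and 0.24. Over all 100 members the median was 0.36, with a range from -4.85 to 2.99. Of the members, 28 were at least 2-fold higher at PND10, against 4.88% of the eligible rows, and 24 were below 0.5 times the early level, against 10.2%. Of the 28, 27 belonged to the first group. Of the 24, 4 belonged to the first group, 11 to the second and 9 to the third, and 16 members (10 of the second group and 6 of the third) were at 0.25 times or less, against 131 of the 4221 eligible rows. No test was made of these differences, since the early stages had a single library each and chose the members.

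**Figure D1:**
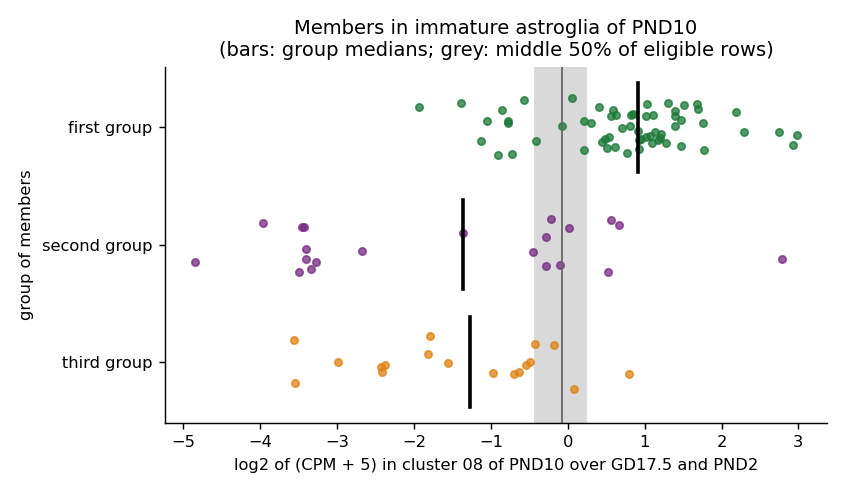
Level of each member in cluster 08 of PND10 relative to GD17.5 and PND2 (x axis, log2 of the ratio of CPM + 5), by group of members (y axis); points are members, black bars group medians, the grey line the median and the grey band the middle 50% of the 4221 eligible rows. Most points of the first group lie right of the band (median 0.92), while the second and the third groups have medians of -1.36 and -1.26 and tails to -4.85.

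The sign of the median over all 100 members depended on the libraries and on the choice. In the first PND10 library the median was 0.37, and in the second, with 7 nuclei, it was -0.65. Choosing the members from GD17.5 alone, with the early level also from GD17.5 alone, gave -1.71. Weighing libraries equally, in the choice and in both levels, gave -0.60. There the 7 nuclei of the second PND10 library counted as much as the whole first library. The median of the first group was -0.02 in the 7 nuclei of the second PND10 library alone, so the higher level of that group at PND10 rests on the first library. The second and the third groups together had a median of -1.36, and of -3.30 in the second library alone, where 1 UMI is worth 42.6 CPM.

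The 5 top-ranked members all stood higher in the first PND10 library than at PND2. Rank 1 was at 33.3 CPM at GD17.5 (95% Poisson interval 26.6 to 41.2), 64.9 at PND2 (57.1 to 73.4), 139 in the first PND10 library (116 to 164) and 42.6 in the second, where it had 1 UMI. Rank 2 was at 15.3, 108, 347 and 128 CPM in the same order. Rank 3 was at 5.49, 82.2 and 438 CPM in the first 3 libraries and had no UMI in the second PND10 library, which at 3 counts allows up to 128 CPM. Rank 4 was at 27.4, 149, 721 and 42.6 CPM. The intervals cover counting error only. Ranks 1 to 4, all of the first group, were higher at each step from GD17.5 to the first PND10 library without overlap of these intervals, and the second library had 3 UMIs or fewer of each.

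Rank 5 took another course. It was grouped with the second group and was at 87.8 CPM before birth (76.7 to 100.1) and 59.5 CPM at PND2 (52.0 to 67.7), but at 528 CPM (484 to 576) in the first PND10 library and 42.6 in the second. In mature astrocytes it was at 12.3 and 1.25 CPM in the PND10 libraries, and at 0 and 1.05 in those of PND30. Its high level at PND10 was thus seen in the immature nuclei of the first library, and the 1 UMI in the second leaves an interval of 1.08 to 237 CPM.

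The members with the highest level at PND10 over the early stages were rank 60 (matrix row 31065) and rank 3 (row 2641), both of the first group, with log2 ratios of 2.99 and 2.93. Rank 60 was at 84.3 CPM at GD17.5, 212 at PND2, and 1335 and 341 in the PND10 libraries. After every nucleus was thinned to 1500 UMIs, it had a UMI in 9.28%, 19.0% and 74.8% of cluster 08 nuclei of GD17.5, PND2 and PND10, against 3.35% of mature astrocytes and 3.06% of Avp+ neurons at PND10. Early SCN neurons of GD17.5 and PND2 had a UMI of it in 9.41% of nuclei. In OPCs it was at 71.3 and 73.5 CPM in the PND10 libraries, against 86.9 and 17.0 in mature astrocytes. Ranks 5, 4 and 19 followed with log2 ratios of 2.78, 2.75 and 2.30. Rank 19 was at 12.9 CPM at GD17.5, 110 at PND2, and 378 and 85.2 in the PND10 libraries. All 5 were higher in the first PND10 library than at GD17.5 or PND2, and all but rank 60 were lower in the second library than at PND2, on 2 UMIs or fewer each.

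The members with the lowest level at PND10 over the early stages were rank 38 (matrix row 6254) and rank 83 (row 16523), both of the second group, with log2 ratios of -4.85 and -3.97. Rank 38 was at 842 CPM at GD17.5 (807 to 878), 206 at PND2 (192 to 220) and 11.4 in the first PND10 library (5.68 to 20.3), with no UMI in the second. It was more abundant in mature astrocytes of PND10, at 176 and 266 CPM, than in the immature nuclei of the same libraries, and stood at 27.1 and 53.4 CPM in mature astrocytes of PND30. Rank 83 was at 599, 14.7 and 8.27 CPM in the first 3 libraries, and the 128 CPM of the second PND10 library came from 3 UMIs. Its UMIs were therefore largely those of GD17.5.

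Ranks 99, 22 and 34 came next. Rank 99 was at 108 CPM at GD17.5 and 18.1 at PND2 and was the 1 member with no UMI in cluster 08 of PND10, which is at least 17.7-fold lower than its early level of 53.7 CPM, with 3 counts over both libraries as the floor. Rank 34 was at 140 CPM at GD17.5, 11.6 at PND2 and 1.03 in the first PND10 library, a log2 ratio of -3.49. Rank 22 was at 106 CPM at GD17.5, 97.0 at PND2 and 4.14 in the first PND10 library, a log2 ratio of -3.54. Ranks 34 and 99 were already lower at PND2 than at GD17.5, with intervals apart, whereas the interval of rank 22 at PND2 (87.4 to 107) overlapped that at GD17.5 (93.6 to 119).

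**Figure D2:**
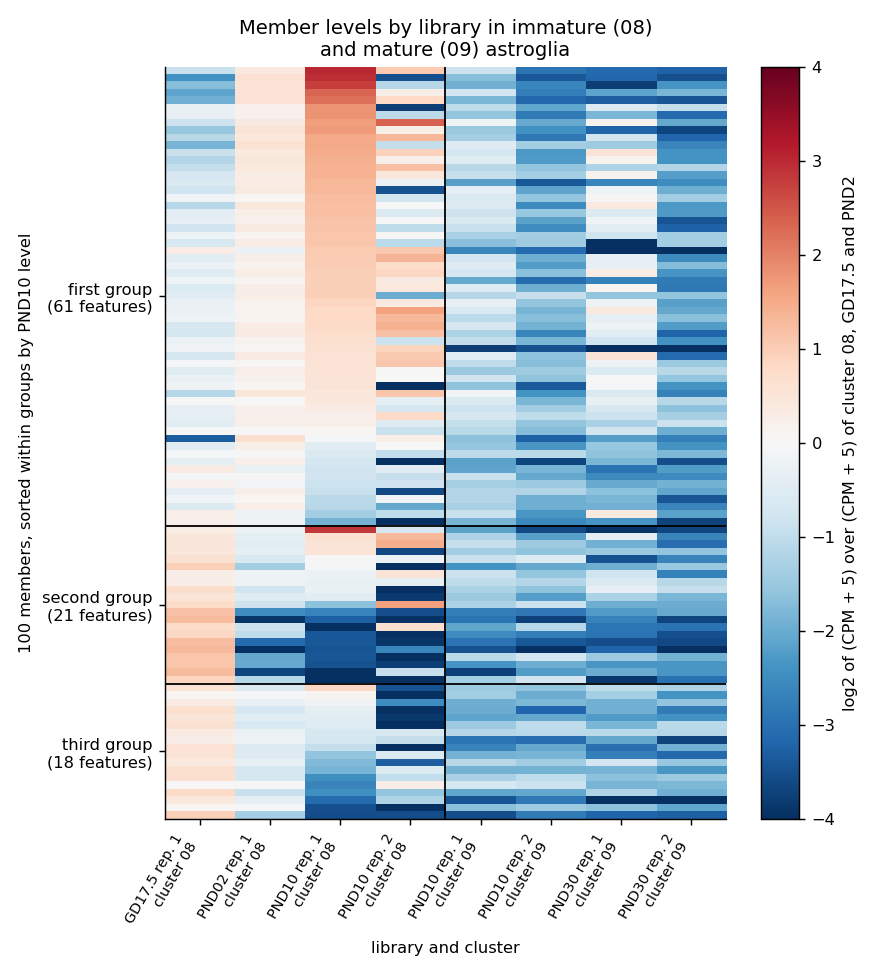
Level of the 100 members (y axis, sorted within the 3 groups by their level at PND10) in each library of clusters 08 and 09 (x axis), as log2 of CPM + 5 over that of cluster 08 at GD17.5 and PND2 (color). The first group is high in cluster 08 of the first PND10 library and low in cluster 09, and the second group is highest at GD17.5. The second PND10 library of cluster 08 has 7 nuclei and many members at 0.

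Over the stages, the median of the first group was higher at each step, and the second group was lower already at PND2. The median level in cluster 08 at GD17.5, PND2 and PND10 was 81.9, 149 and 245 CPM in the first group, 169, 49.1 and 22.2 CPM in the second, and 143, 79.9 and 58.5 CPM in the third. Levels were higher at both steps in 45 members, all of them in the first group, against 21.7% of the eligible rows, and lower at both steps in 27, against 28.6%. Between GD17.5 and PND2, 18 members were at least 2-fold higher, against 5.59% of the eligible rows, and 23 were at 0.5 times or less, against 3.39%. Of the 23, 14 were in the second group and 9 in the third. GD17.5 and PND2 both entered the choice, and the groups were formed across the nuclei of both stages together. How the members higher or lower at PND2 fell into the groups was thus partly set beforehand. These counts describe the members and were not tested.

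Immature and mature astroglia of PND10, each summed over both libraries, differed most in the first group. The first and second library gave 967206 and 23487 UMIs of cluster 08, but 1703692 and 2409465 of cluster 09. In these sums, all 61 members of that group were higher in cluster 08 than in cluster 09, with a median ratio of 4.86. Within the first library alone, ranks 9 and 53 of that group were lower in cluster 08 (19.6 and 31.0 CPM) than in cluster 09 (20.5 and 46.4 CPM). Over all members, 86 were higher in the sums, against 60.2% of the eligible rows, and 67 were at least 2-fold higher, against 9.83%. At 0.5 times or less there were 8 members, a share near the 9.76% of the eligible rows. Mature astrocytes had entered the choice, and clustering had separated the nuclei, so the direction was partly set beforehand and no test was made. In mature astrocytes of PND10 and PND30 the first group had median levels of 44.2 and 51.9 CPM, the second 29.4 and 18.7, and the third 29.9 and 27.5.

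Together the 100 members made up 3.41% of the UMIs of cluster 08 at GD17.5 (95% interval 3.39% to 3.44%), 2.83% at PND2 (2.81% to 2.84%), and 3.73% and 2.69% in the PND10 libraries (3.70% to 3.77% and 2.49% to 2.91%). The groups differed within this total. The first group made up 1.35% at GD17.5, 1.87% at PND2, and 2.76% and 1.80% in the PND10 libraries. The second made up 1.14%, 0.380%, 0.583% and 0.502%, and the third 0.921%, 0.576%, 0.388% and 0.392%. The first and second groups thus moved in opposite directions from GD17.5 to PND2, the stages whose nuclei formed the groups. From PND2 to the first PND10 library both shares were higher, and in the second library the first was lower and the second higher. The first group's share did not rest on 1 member, because rank 67, its most abundant, gave 0.215% at GD17.5 and 0.361% in the first PND10 library and the other 60 gave 1.14% and 2.40%. The second group without rank 76 made up 0.527% at GD17.5, 0.114% at PND2 and 0.172% in the first PND10 library, and the third without rank 85 made up 0.382%, 0.221% and 0.113%. In summed UMIs, a smaller share of nuclei with a feature and fewer UMIs of it per nucleus cannot be told apart, so the shares were also taken per nucleus.

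Per nucleus, the share of the first group was spread widely in immature astroglia of GD17.5 and PND2 and was high in nearly all nuclei of the first PND10 library. After nuclei were thinned to 1500 UMIs and those below left out, 139 of 474 nuclei at GD17.5 (29.3%) and 258 of 657 at PND2 (39.3%) had 2% or more of their UMIs from the first group. At PND10, 94 of 111 (84.7%) did, 92 of 104 in the first library and 2 of 7 in the second. Nuclei with less than 1% made up 40.3% and 41.1% in GD17.5 and PND2 but 3.60% in PND10, which were 1 of 104 nuclei in the first library and 3 of 7 in the second. In mature astrocytes, 10 of 806 nuclei at PND10 and 1 of 374 at PND30 had 2% or more. The immature nuclei of the first PND10 library thus lay at the upper end of the range seen earlier, whereas the 7 of the second were spread over it.

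**Figure D3:**
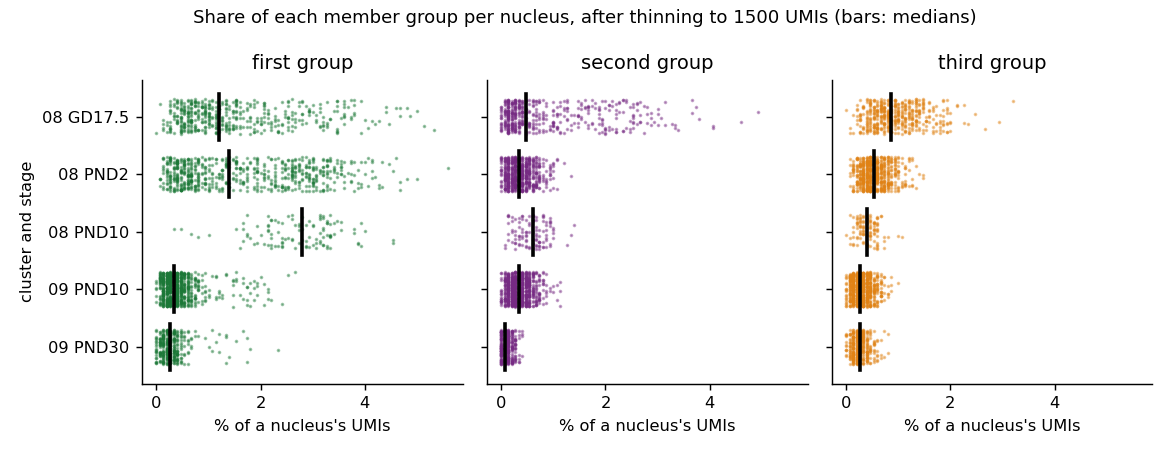
Share of a nucleus's UMIs that came from the first, second and the third group of members (x axis, %), after thinning to 1500 UMIs, for clusters 08 and 09 by stage (y axis); points are nuclei and bars medians. For the first group the PND10 nuclei of cluster 08 have a median of 2.80%, against 1.20% at GD17.5 and 1.40% at PND2, and those of cluster 09 lie near 0.333% at PND10. The second group has a tail above 2% at GD17.5, in 80 of 474 nuclei.

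At GD17.5 the first and second groups were high in different nuclei. Of 474 nuclei, 136 had 2% or more of their UMIs from the first group and less than 1% from the second, 164 had 1% or more from the second and less than 2% from the first, and 3 had both. The remaining 171 had neither. Across these nuclei the shares of the 2 groups had a Pearson correlation of -0.49 (Spearman -0.57), which is a description, because these nuclei formed the groups, come from 1 library, and a share of UMIs that goes to one group cannot go to the other. Nuclei high in the second group were deeper, with a median of 5453 UMIs and 2664 genes at full depth, against 3205 UMIs and 1915 genes in those high in the first. The third group was alike in both, at medians of 0.80% and 0.933%. The part of depth in this division was not tested.

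After birth the nuclei high in the second group were few. At PND2, 11 of 657 nuclei had 1% or more of their UMIs from it, 3 of them together with 2% or more from the first group, and at PND10 7 of 111 did, 4 of them together with the first. At 2% or more of UMIs, there were 80 of 474 nuclei at GD17.5 and none at PND2 or PND10, which allows up to 0.457% and 2.70%. The correlation of the shares was -0.11 at PND2 and 0.02 at PND10. Rank 38 had a UMI in 39.0%, 20.5% and 0.901% of thinned nuclei of GD17.5, PND2 and PND10, and rank 83 in 27.4%, 1.07% and 1.80%.

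**Figure D4:**
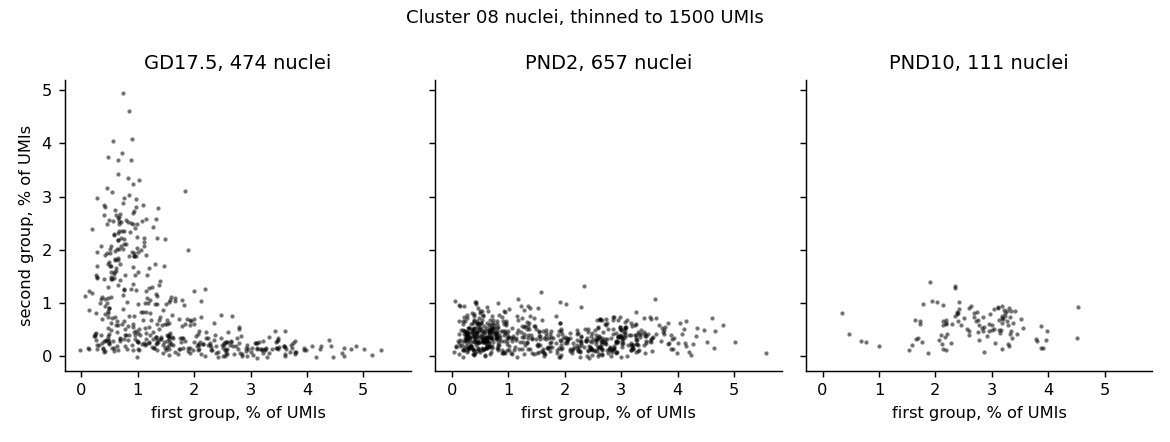
Share of UMIs from the first group (x axis, %) and from the second group (y axis, %) in each nucleus of cluster 08 at GD17.5, PND2 and PND10, after thinning to 1500 UMIs; each point is 1 nucleus, with a small random shift. At GD17.5 the nuclei lie along both axes, with 136 high in the first group, 164 high in the second and 3 high in both, whereas at PND2 and PND10 few lie above 1% on the y axis.

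Outside cluster 08, the share of the members was highest in OPCs of GD17.5 among clusters with at least 5 nuclei in a library, and it was lower in OPCs of every later library. OPCs had 1.60% of their UMIs from the members at GD17.5 (1.57% to 1.63%), 0.744% at PND2, 0.50% and 0.419% in the first and second PND10 library, and 0.427% and 0.355% for PND30. The nuclei of GD17.5 OPCs were uneven, with a median of 1.34% and a 95th percentile of 3.94%, and 14 thinned nuclei (13.7%) had 2% or more of their UMIs from the first group, against 0 of 181 at PND2, which allows a share of up to 1.66%. The early levels of OPCs entered the choice, whereas those of PND10 and PND30 did not. Endothelial cells had 0.847% before birth (9 nuclei) and 0.945% after it at PND2 (16 nuclei), above the OPCs of PND2, as were mature astrocytes in both PND10 libraries. Early SCN neurons had 0.612% at GD17.5 and 0.455% at PND2.

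**Figure D5:**
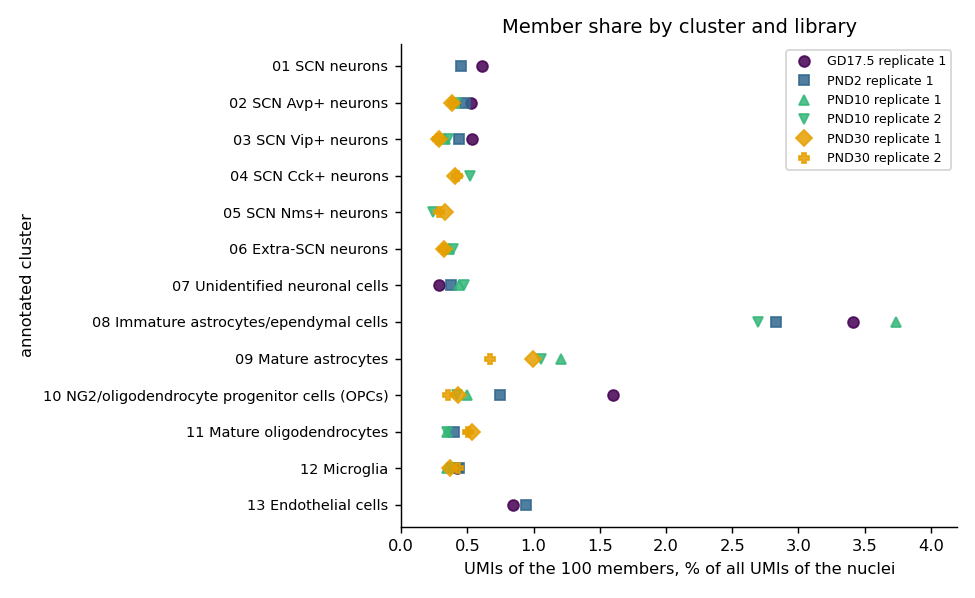
UMIs of the 100 members as a percentage of all UMIs (x axis) in each annotated cluster (y axis), 1 point per library with at least 5 nuclei of the cluster. Cluster 08 lies between 2.69% and 3.73%, cluster 09 between 0.668% and 1.21%, and OPCs move from 1.60% at GD17.5 to 0.355% at PND30.

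Some members were as abundant in cells that the choice had not considered. In clusters and stages that the choice did not use and that had at least 10 nuclei, 12 members reached their early cluster 08 level, none of them in the Avp+, Vip+, Cck+, Nms+ or extra-SCN neurons. At most 5 members did so in any 1 cluster and stage, whereas 26.7% to 43.8% of the eligible rows did (27.6% to 34.8% in those neurons). The choice had taken rows that were high in cluster 08. Rank 8 was at 2112 CPM (1882 to 2362) in the 16 endothelial nuclei of PND2, against 70.4 in early cluster 08 and 12.0 in early OPCs. Rank 16, of the second group, was at 543 CPM (430 to 677) in the same endothelial nuclei, against 107. Ranks 50, 56 and 87 also reached their level there, at 131, 344 and 82.5 CPM.

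In mature oligodendrocytes, rank 41 was at 744 CPM at PND10 and 617 at PND30 (540 to 701), against 260 in early cluster 08. Rank 46 was at 156 and 456 CPM there, against 130, and ranks 43 and 10 were at 73.7 CPM at PND10 and 105 CPM at PND30. Rank 28 reached its level of 57.5 CPM in microglia of PND2, PND10 and PND30, at 68.2, 70.8 and 217 CPM, and in OPCs of PND30, at 78.7. Rank 96 in microglia of PND2 (93.0 CPM, against 73.5) and rank 66 in unidentified neuronal cells of PND2 (169 CPM, against 126) rest on 15 and 19 UMIs. The choice had compared cluster 08 with neurons, OPCs and mature astrocytes only.

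Within mature astrocytes, no member passed the test between PND10 and PND30. Of 12145 rows tested with edgeR's quasi-likelihood test, 2 (0.0165%) had a Benjamini-Hochberg adjusted p under 0.05. Of the 90 members that passed the filter on low counts, 0 did, and the others were not tested. At an unadjusted p under 0.05 there were 17 members, 15 lower and 2 higher at PND30, beside 9.25% of all rows. The median log2 change of the 90 members was 0.01 and that of all rows was 0.02. With DESeq2, 147 rows and 5 members were called, all 5 lower at PND30 (ranks 6, 38, 76, 77 and 84).

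Rank 76 had the smallest adjusted p among members in edgeR. It was at 2178 and 2779 CPM in the PND10 libraries of mature astrocytes and at 358 and 626 in those of PND30, so that the stages did not overlap, with a log2 change of -2.30 ± 0.34 (SE; edgeR adjusted p = 0.146). In early cluster 08 it had stood at 6141 and 2665 CPM. Rank 38 was at 176 and 266 CPM and then at 27.1 and 53.4, a log2 change of -2.41 ± 0.40 (edgeR adjusted p = 0.175). Rank 77 was at 54.6 and 36.9 CPM and then at 8.55 and 2.10, with -3.16 ± 0.58 (edgeR adjusted p = 0.208). Rank 84 was at 320 and 293 CPM and then at 144 and 149, with -1.04 ± 0.17 (edgeR adjusted p = 0.171). Rank 6 had a log2 change of -1.61 ± 0.39 (edgeR adjusted p = 0.306). None of the 5 passed the edgeR threshold in this fit, which used all 4 libraries, the filter on low counts and no replicate block. With no filter edgeR called 370 of 26266 rows, 218 higher and 152 lower at PND30, and 11 of 100 members, 10 of them lower. With equal numbers of nuclei it called 31 of 8082 rows, 18 higher and 13 lower, and 1 of 78 members, which was lower. Leaving out 1 library left a lone sample in 1 stage. The median log2 change of the members tested was then 0.38 and -0.36 without the first and second PND10 library (all rows 0.03 and 0.02). It was -0.82 and 0.34 without the first and second PND30 library (all rows -0.05 and -0.01).

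In summed UMIs, the share of the first group in mature astrocytes differed between the libraries of a stage more than between stages. It was 0.626% and 0.398% of UMIs in the PND10 libraries and 0.604% and 0.295% in those of PND30, higher in the first library at both stages. The medians over nuclei were closer between libraries, at 0.378% and 0.339% at PND10 and 0.277% and 0.245% at PND30. By the medians, both PND10 libraries were above both PND30 libraries. The 95th percentiles were 1.70% and 0.814% at PND10, and 1.42% and 0.572% at PND30. In Avp+ neurons the same share was 0.302% and 0.322% in the PND10 libraries, and the PND30 libraries had 0.292% and 0.308%. The second group was lower at PND30 in both libraries, at 0.101% and 0.109% against 0.293% and 0.359%, of which rank 76 alone gave 0.218% and 0.278% in the PND10 libraries but 0.0358% and 0.0626% in the PND30 libraries. The third group stood at 0.290% and 0.298% and then at 0.288% and 0.264%.

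Within OPCs, 6043 rows and 16 members had enough counts for the test, and 2 rows (0.0331%) and 0 members were called by edgeR between PND10 and PND30. At an unadjusted p under 0.05 there were 4 members, 2 lower and 2 higher, beside 9.68% of all rows, and DESeq2 called 13 rows and 0 members. The smallest adjusted p was that of rank 20, with a log2 change of 1.18 ± 0.25 (edgeR adjusted p = 0.142). Rank 67 had -2.32 ± 0.52 (edgeR adjusted p = 0.154) and rank 28 had 2.28 ± 0.54 (edgeR adjusted p = 0.165). The PND30 libraries had 15 and 46 OPC nuclei, and most members were too low to be tested. Leaving out 1 of the 4 libraries left a lone sample in 1 stage, and 11 to 39 members were then tested. Their median log2 change was -0.009 and -0.41 without the first and second PND10 library (all rows 0.03 and 0.02). It was -0.95 and -0.44 without the first and second PND30 library (all rows -0.08 and -0.08).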

How the data were processed

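Single-nuclei RNA-seq libraries (10x Genomics 3′ v3.1) of 6 samples were used. The authors counted UMIs with Cell Ranger 5.0.1 on mm10 and deposited them as raw, unnormalized counts, together with clusters from Seurat 4 for nuclei within limits on UMIs (at least 750), genes, doublet score and the share of mitochondrial and ribosomal reads. Nuclei predicted to be doublets were thus removed before the annotation, and undetected ones may remain. Of 22796 annotated nuclei, 22790 were placed in 1 library by stage and barcode, 5 occurred in both libraries of a stage and 1 in none, and 40 barcodes were carried by placed nuclei of more than 1 library.

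UMIs were summed per cluster and library and scaled to CPM. Members and lists were chosen with earlier results of these data known. Members are given by a rule: ranks 1 to 5, the 5 highest and 5 lowest at PND10, the 3 most abundant, those at their early level in clusters not used, the rows beside the limit, and any called in a test. Ranks called by DESeq2 or with the smallest adjusted p were named after their values were seen. Groups came from average linkage on correlations of log-scaled counts, and their number and the limits of 2% and 1% of a nucleus's UMIs were set after the data had been seen. Intervals are exact Poisson or Clopper-Pearson at the 95% level, for counting error only. A count of 0 in a share allows 3 counts of the total.

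PND10 and PND30 were compared in clusters 09 and 10 with edgeR 4.0.16 (glmQLFit, glmQLFTest, TMM, filterByExpr; calls at a Benjamini-Hochberg adjusted p under 0.05; R 4.3.3), with DESeq2 1.42.0 as an alternative. The summed counts held 701788 to 2409465 UMIs per library in cluster 09. The test was checked on simulated counts in which 200 rows were changed by a log2 of 2. It recovered 79.5% of them in cluster 09 and 69% in cluster 10, with 4 and 6 false calls. The changed rows were drawn only from the more abundant rows, so these rates do not cover members at low levels. Smaller changes, and deviations shared by same-numbered libraries, were not simulated. Other steps used Python 3.11.15 with numpy 2.4.6, scipy 1.17.1 and pandas 2.3.3. Alternatives changed the choice of members, scaling, filter, depth, linkage and libraries.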

Additional observations from a re-analysis of the deposited data

Results flagged for a closer look

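Members were also counted in barcodes with fewer than 750 UMIs that carry no annotation, which no comparison above uses. They made up 0.476% of the UMIs of such barcodes at GD17.5, 0.512% at PND2, 0.411% and 0.318% for PND10 and 0.313% and 0.305% for PND30. In the annotated neuron clusters of the same libraries, members made up 0.288% to 0.612% at GD17.5, 0.377% to 0.482% at PND2, 0.332% to 0.435% and 0.239% to 0.521% at PND10, and 0.286% to 0.404% and 0.281% to 0.418% at PND30. The barcodes under 750 UMIs were within these ranges except at PND2, where they were above. The first group made up 0.224% and 0.152% for PND10 and 0.197% and 0.214% for PND30. Whether these UMIs come from free RNA or from small nuclei was not tested.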

How the results depend on the processing

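The choice of members kept 67 to 100 of the 100 under 12 settings, 56 with at least 100 CPM in cluster 08, 50 when 50 rows were taken, 48 from GD17.5 alone and 67 from PND2 alone. Taking 50 or 200 rows used the same order, so the 50 and 100 members kept there were fixed in advance. The most kept under any other setting was 98, with 1 added to CPM. The median log2 level at PND10 (0.36) kept its sign under 11 settings and changed it with clusters 01, 03 and 10 summed (-0.44), libraries weighed equally (-0.60) and 50 rows (-0.011). Leaving out a library gave -1.71 (members and early level from GD17.5 alone) to 0.60 (both from PND2 alone). The median was -0.21 when the second PND10 library was left out of the choice. It was -0.65 when the PND10 level came from the second PND10 library alone. The median of the first group (0.92) was -0.020 there and 0.94 in the first library alone. The second and the third groups together (-1.36) were at -3.30 there and at -3.13 with groups from PND2 nuclei alone. These last alternatives were chosen after seeing the data. For each of these changes the cause was not tested.

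Without the 10 most abundant members, the share of UMIs was 1.84% in cluster 08 of PND10 (3.71% with them), 1.28% in cluster 08 of GD17.5 and PND2 (3.06%), and 0.403% and 0.382% in mature astrocytes of PND10 and PND30 (1.12% and 0.806%). Thinning gave 2.94% for cluster 08 of GD17.5 and PND2, and the mean over nuclei 2.94%. Without 1 PND10 library, the PND10 share was 2.69% to 3.73%.

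In mature astrocytes the 2 calls between PND10 and PND30 (0 members) became 147 with DESeq2 (5 members; 88 of the rows higher and 59 lower at PND30), 370 with no filter (11), 31 with equal numbers of nuclei (1) and 0 to 83 without 1 library (0 to 2). In OPCs the 2 calls (0 members) became 13 with DESeq2 (0), 11 with no TMM factor (0), 71 with no filter (3), 4 with equal numbers of nuclei (0) and 26 to 50 without 1 library (1 to 2). With the replicate number as a block there were 465 calls (10 members) in mature astrocytes and 97 (3 members) in OPCs. Deviations of same-numbered libraries correlated at 0.56 and 0.011. The first libraries of PND10 and PND30 held 1361 and 771 nuclei with median depths of 8377 and 12106 UMIs. The second held 4714 and 5468 nuclei with 4549 and 3144 UMIs, so the number also separates fewer, deeper nuclei from more, shallower ones. The methods do not say whether same-numbered libraries shared a run, and 2 pairs do not establish a pairing. The part of run and depth in these calls was not tested. Leaving out a library leaves 1 stage with a lone sample, assumed to vary like the other stage, so calls of those fits are not counted.

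Precision is limited by the 7 nuclei of cluster 08 in the second PND10 library, by 1 library each at GD17.5 and PND2, and by 15 and 46 OPC nuclei at PND30. Rows without names allow no check of overlapping or near-identical genes.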

Other observations

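Members that lie next to each other in the order of matrix rows formed 6 pairs. Their correlations across the 1153 early nuclei of cluster 08 were 0.231 to 0.327. Of the pairs, 3 lay within the first group, where the median over all pairs was 0.18, 2 within the third, where it was 0.11, and 1 joined the first and the third groups, where it was 0.02. Ranks 2 and 91 (0.327) and ranks 7 and 13 (0.313) both rose at PND10, with log2 ratios of 2.18 and 0.93, and of 1.75 and 1.51. Ranks 48 and 79 (0.231) were at -0.57 and -0.78. Ranks 36 and 15 (0.280), of different groups, were at 0.05 and -0.49. In the third group, ranks 85 and 64 (0.301) were at -0.63 and -0.97, and ranks 15 and 41 (0.287) at -0.49 and -0.18. What the order of rows stands for was not given in the sources used here, and these pairs were noticed after the values had been seen.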
